A study of Homo sapiens with 18 samples.

Results

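EWSR1, FLI1 and 7 genes known as targets of the Ewing sarcoma fusion protein, NR0B1, NKX2-2, STEAP1, PRKCB, CCND1, LIPI and CCK, were followed through RNA-seq of 18 libraries from 2 human cancer cell lines. These 9 genes, of 57500 genes counted in each library, were picked by name, and their symbols were matched to the gene identifiers in the count tables. The lines were ES8, labelled as Ewing sarcoma, and Rh30, labelled as rhabdomyosarcoma, a tumour of muscle-like cells. Each tumour type was represented by that line only, so differences between lines and between tumour types cannot be told apart. Each line gave 3 groups of 3 libraries, replicates A, B and C: parental cells with a control guide (sgCTL), parental cells with a guide against DNAJC17 (sgDNAJC17), and cells that stably expressed 3xFLAG-DNAJC17-dRRM together with sgDNAJC17, called ΔRRM here. Knockdown was by CRISPRi, in which dCas9-KRAB is guided to the start of a gene and represses its transcription, and all cells were selected with puromycin for 72 hours. DNAJC17 is a J-domain co-chaperone with an RNA recognition motif (RRM), and the ΔRRM allele lacks that motif. It was a lentiviral cDNA under an EF1 promoter in hygromycin-selected cells, so the ΔRRM cells were a separate stable population, and no ΔRRM library with sgCTL was analysed here. Per the study's methods the cells were plated in triplicate. No source used here says whether the replicates were independent experiments, so p-values measure the spread between these libraries, which may be technical.

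Ewing sarcoma cells carry a fusion of EWSR1, a FET-family RNA-binding protein, with an ETS transcription factor, most often FLI1. The fusion protein joins the activating part of EWSR1 to the DNA-binding part of the ETS partner, binds runs of GGAA as well as lone ETS sites, and turns some genes on and others off. Among its well known targets, NR0B1 and NKX2-2 encode transcriptional regulators, PRKCB a protein kinase C, CCND1 the G1 cyclin D1, STEAP1 a cell-surface metalloreductase, LIPI a phospholipase and CCK the neuropeptide cholecystokinin.

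The GGAA core was looked for in RefSeq promoter windows (GRCh38.p14, 250 bases before to 50 bases after a start), on either strand, so that it also reads as TTCC. Windows were matched by symbol for 7 of the 9 genes. At least 1 GGAA match lay in 95.5% of all 35116 windows, with a median of 3 matches, and 28.6% of windows held 5 or more. CCK, the gene with the largest change in ES8 below, had 6 and 7 matches in its 2 windows, NR0B1 had 5, STEAP1 4, EWSR1 3, LIPI 2 and 4 in its 2 windows, NKX2-2 1 and 0, and PRKCB 0. The repeat GGAAGGAA (in 3.67% of all windows) and the longer ETS site CCGGAAGT (in 4.14%), each of which contains GGAA, were in no window of these genes. The lines below show a 30-base stretch for the genes whose levels moved most in ES8 or that stood lowest in GC content, 5′ to 3′ on the gene's strand, with GGAA or TTCC in capitals.
CCK, chr3:42266158-42266187, minus strand: ccaTTCCagagGGAATTCCagagcGGAAta
CCK, chr3:42264040-42264069, minus strand: agctatctGGAAaagtgctTTCCccagggt
NR0B1, chrX:30309607-30309636, minus strand: gGGAAaggggtaatgagaGGAAggaGGAAa
STEAP1, chr7:90154352-90154381, plus strand: ctccaaggacgTTCCGGAAccctgcggacg
LIPI, chr21:14206980-14207009, minus strand: tGGAAttctgctggcccaaaagggtcTTCC
A match is a description of the letters and not a binding site.

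The libraries held 35342393 to 48245989 counts. DNAJC17 itself was at 11.2 to 12.4 CPM (counts over the library's TMM-scaled total) in ES8 sgCTL and 1.56 to 1.96 CPM in ES8 sgDNAJC17, a log2 fold change of -2.84. In ES8 ΔRRM it was at 283 to 312 CPM, where reads of the transgene and of the endogenous gene cannot be told apart. The summed level of 9 myogenic markers was 3342 to 3459 CPM in Rh30 sgCTL and 125 to 126 CPM in ES8 sgCTL. In ES8 sgCTL, MYOG and CHRNA1 were at 0, and FGFR4 alone had a mean of 92.4 CPM. PAX3 and TFAP2B went the other way from the sum. PAX3 had a mean of 25.2 CPM in ES8 sgCTL and 17.96 CPM in Rh30 sgCTL. TFAP2B had a mean of 6.45 CPM in ES8 sgCTL and was at 0 in Rh30. The other markers of this list were higher in Rh30 sgCTL. CD99, used as a marker of Ewing sarcoma, was high in both lines, with a mean of 318 CPM in ES8 sgCTL and 343 CPM in Rh30 sgCTL. Markers of blood cells (4 genes) and of endothelium (3 of 4 matched) summed to at most 1.18 and 0.81 CPM in any library. The library ES8 sgDNAJC17 replicate A stood apart from its group: its root mean square log2 distance from the other 2 replicates was 0.294, against 0.113 to 0.244 in the other 17 libraries, and its deviations followed the GC content of genes (r = 0.763 across 9672 genes, which are not independent replicates). Replicates B and C of the group deviated the other way (r = -0.629 and -0.636). Each was measured against a mean that held replicate A, so these signs are not independent of it. In the other ES8 libraries r lay between -0.502 and 0.422. Values without replicate A are therefore given beside the results that rest on it.

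EWSR1 was active in both lines, whereas FLI1 and 6 of the 7 targets were read almost only in ES8. EWSR1 (ENSG00000182944, GRCh38 chromosome 22, 29268009 to 29300525) was at 333, 348 and 339 CPM in ES8 sgCTL and at 466, 459 and 458 CPM in Rh30 sgCTL. The groups did not overlap, and ES8 was the lower by 0.41 on the log2 scale (log2 fold change -0.41 ± 0.045 SE, edgeR adjusted p = 3.82e-12). CCND1 (ENSG00000110092, chromosome 11, 69641087 to 69654474), the cyclin that carries cells through G1, was at 897, 852 and 880 CPM in ES8 sgCTL and at 283, 261 and 256 CPM in Rh30 sgCTL, a log2 fold change of 1.74 ± 0.047 (adjusted p = 4.71e-37). The size of both differences depended on the setting. Over 11 other settings, leaving out libraries aside, EWSR1 ran from -0.59 to -0.20 and CCND1 from 1.37 to 1.96. Fewer cells of a type and less RNA per cell cannot be told apart in such bulk libraries.

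FLI1 (ENSG00000151702, chromosome 11, 128686535 to 128813267) had 2177, 1938 and 2232 counts in the ES8 sgCTL libraries and 0, 2 and 2 counts in those of Rh30 sgCTL. In CPM that is a ratio of 1362, with an exact 95% counting interval of 532 to 5000. Counting intervals and floors here cover counting error only. The reads of the fusion transcript and of the unfused EWSR1 and FLI1 genes were counted together, and the labels do not name the fusion partner in ES8. ERG, the next most common partner, had at most 5 counts in any ES8 library, and the rarer partners FEV, ETV4 and ETV1 had 150 to 217, 36 to 81 and 518 to 1147. ETV1 and ETV4 were read in Rh30 as well, at 166 to 355 and 290 to 823 counts, and FEV had 0 to 3 there.

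The silent targets in Rh30 were just as sharply parted. NR0B1 (ENSG00000169297, chromosome X, 30304206 to 30309598) had 3426, 3161 and 3412 counts in ES8 sgCTL against 1 count in all 3 Rh30 sgCTL libraries, a ratio of 8583 (1540 to 339033). PRKCB (ENSG00000166501, chromosome 16, 23836001 to 24220611) had 8194, 7624 and 8615 counts against 5 in all (ratio 4194, 1797 to 12919). Both genes were thus at the edge of detection in the rhabdomyosarcoma line. STEAP1 (ENSG00000164647, chromosome 7, 90154375 to 90164829) had 2330, 2141 and 2337 counts against 2 (ratio 2922, 809 to 24132), and LIPI (ENSG00000188992, chromosome 21, 14108813 to 14210891) had 2607, 2305 and 2686 against 1 (ratio 6522, 1170 to 257631). NKX2-2 (ENSG00000125820, chromosome 20, 21511010 to 21514026), a neural homeobox gene, had 5007, 4394 and 5058 counts in ES8 sgCTL and 0 in Rh30 sgCTL. With a floor of 3 counts over the group, which is 0.0236 CPM, it was at least 4137-fold higher in ES8, and the exact two-sided 95% interval reaches down to 3364. CCK (ENSG00000187094, chromosome 3, 42257825 to 42266207) had only 78, 82 and 77 counts in ES8 sgCTL and 0 in all 9 Rh30 libraries, which makes it at least 67.8-fold higher against the same floor (54.7 at the lower end of the exact interval).

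At an adjusted p under 0.05 (edgeR, quasi-likelihood test, adjusted over all genes tested by the method of Benjamini and Hochberg), 8 of the 9 genes were higher and 1 was lower in ES8 sgCTL than in Rh30 sgCTL. Of all 17925 genes tested, 45.5% were higher and 42.0% lower, so a call in this comparison of 2 lines is common. The 7 genes that are silent in Rh30 passed the filter on low counts through ES8 alone and had to differ. Nor did knockdown or the ΔRRM allele bring these 7 genes up in Rh30, where no library had more than 6 counts of any of them.

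**Figure D1:**
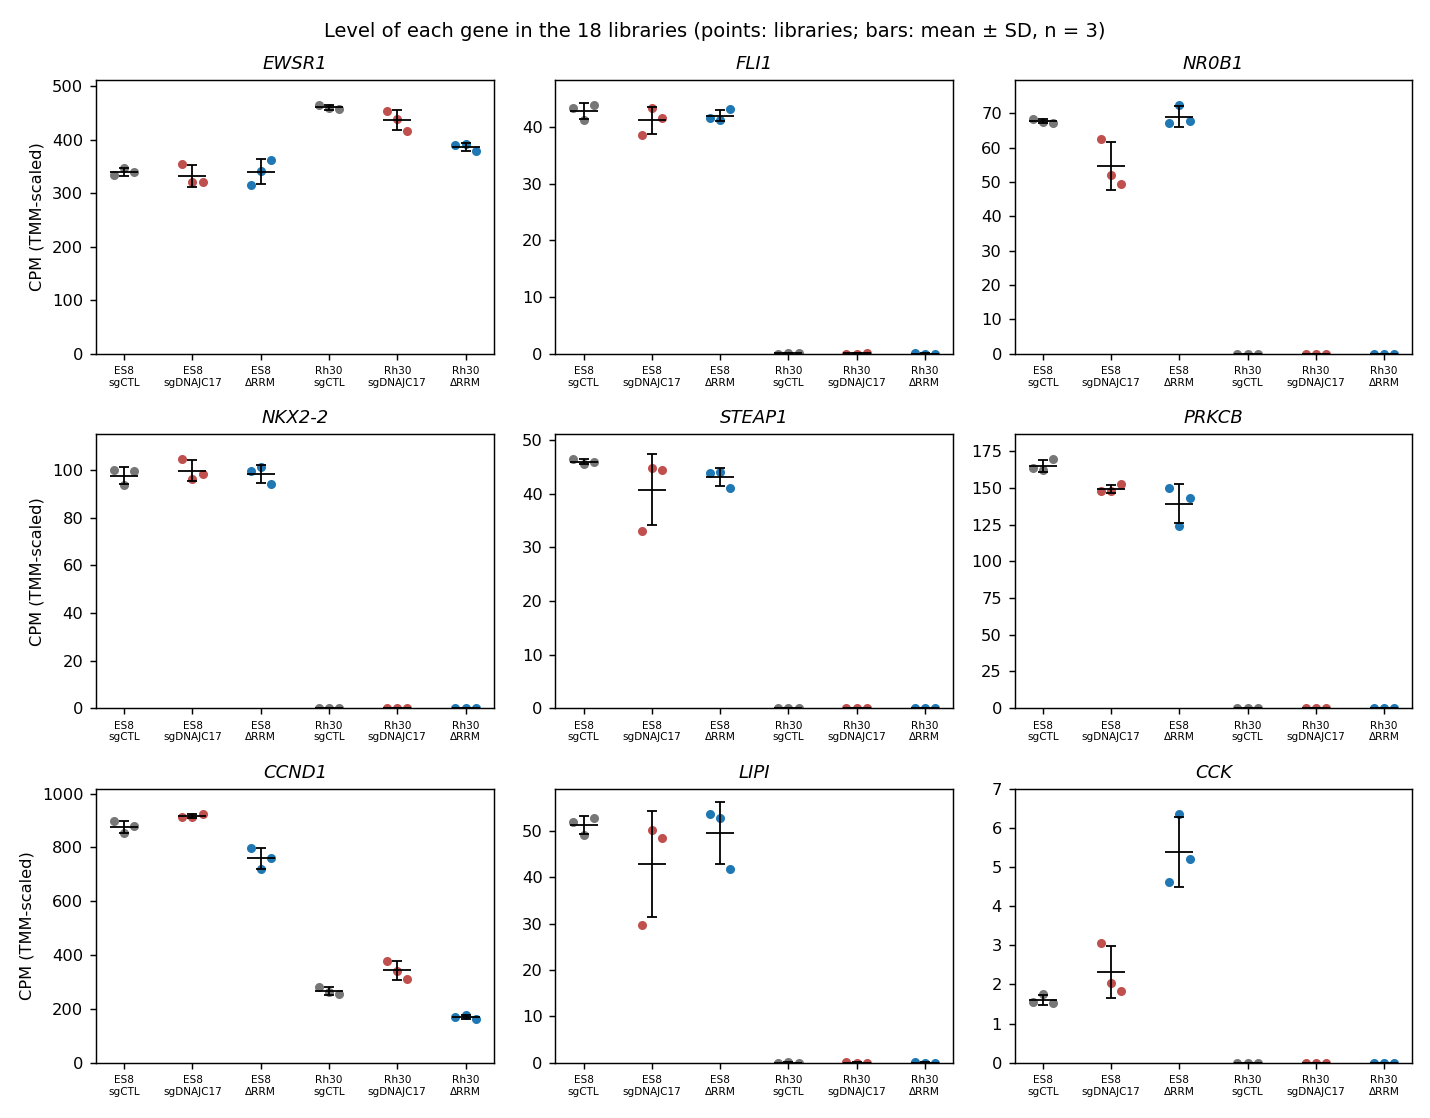
Each panel plots 1 gene in TMM-scaled CPM (vertical axis from 0) in the 6 groups, with a point for each library and bars for the mean ± SD (n = 3). EWSR1 and CCND1 are seen in all 18 libraries, the other genes only in those of ES8, and CCK is highest in the 3 ES8 ΔRRM libraries at 4.61 to 6.37 CPM.

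Per length of transcript, the 9 genes spanned a wide range in ES8 sgCTL. CCND1 led at 789 ± 18.4 TPM (counts per exonic length, scaled to a common total, SD, n = 3), above the level of 99.5% of genes. NKX2-2 followed at 203 ± 7.34 TPM, then EWSR1 at 143 ± 3.65, NR0B1 at 133 ± 0.444, LIPI at 128 ± 5.17 and STEAP1 at 123 ± 0.956 TPM. LIPI and STEAP1 were the only neighbours whose ranges overlapped (122 to 133 and 122 to 124 TPM). PRKCB was at 71.5 ± 2.11 TPM, FLI1 at 22.8 ± 0.788 TPM and CCK at 3.35 ± 0.256 TPM. Per length, the counts over EWSR1 were therefore well above those over FLI1 in the Ewing line. RPKM gave the same order. In Rh30 sgCTL, EWSR1 was at 153 ± 6.18 TPM. The counts are per gene and some exons overlap a gene on the opposite strand: 33.2% of the exonic length of CCK, 30.5% of NKX2-2, 10.3% of CCND1 (LTO1), 4.03% of FLI1 (SENCR) and 1.17% of EWSR1 (RHBDD3). Of DNAJC17, 26.1% is shared in the same way, with GCHFR, C15orf62 and ZFYVE19. The strand setting of the counting is not given in the sources used here. The gene opposite CCK, ENSG00000281160, had 4 counts in all 18 libraries together, and NKX2-2-AS1 had 0.

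**Figure D2:**
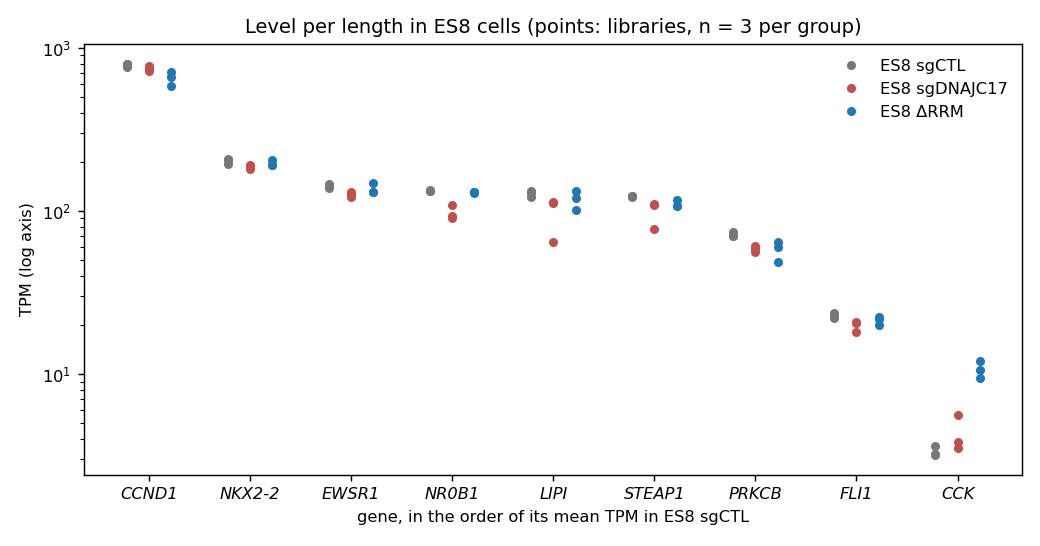
TPM of the 9 genes on a log axis in the 3 ES8 groups, with a point for each library (n = 3) and genes in the order of their mean in sgCTL. The order from CCND1 (789 TPM) to CCK (3.35 TPM) is wide apart except around EWSR1, NR0B1, LIPI and STEAP1, and the 3 CCK points of ΔRRM lie above all those of the other groups.

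The genes whose pattern was most like each partner were found from the root mean square difference of centred log2 CPM over the 18 libraries, among 14175 genes. For EWSR1 these were PRPF19 (0.061), CNP (0.064), MTMR14 (0.065), TBC1D22A (0.065) and NAA40 (0.067). PRPF19, which encodes a core splicing factor of the Prp19 complex, was at 304 CPM in ES8 sgCTL and 436 CPM in Rh30 sgCTL, a line difference of the same direction as that of EWSR1. For FLI1 they were NSG1 (0.264), CYBA (0.303), TCERG1L (0.342), CLVS2 (0.359) and TMEM200A (0.401), all at or under 0.134 CPM in Rh30 sgCTL. Among the targets, STEAP1 was the 64th nearest to FLI1, LIPI the 77th, NR0B1 the 225th, NKX2-2 the 280th, PRKCB the 427th, CCK the 876th and CCND1 the 2301st. STEAP1, LIPI, NR0B1, NKX2-2 and PRKCB had means of 46.0, 51.3, 67.6, 97.7 and 165 CPM in ES8 sgCTL, against 42.9 CPM for FLI1. Their ranks thus follow their level in ES8, since all are near 0 in Rh30, and are no measure of shared regulation. These are descriptions over libraries that share cell line and depth.

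The DNAJC17 guide in ES8 was used to see whether the partners of the fusion and their targets change with it. ZFYVE19, opposite DNAJC17, also had fewer counts with the guide: 934, 978 and 959 in ES8 sgCTL against 339, 348 and 385. In ES8 ΔRRM it had 447, 596 and 505, and its part in these results was not tested. Neither fusion partner passed the test, and of the 9 genes 2 fell, NR0B1 and PRKCB, and 0 rose. Over all 17143 genes tested, 13.5% rose and 13.8% fell. None of the 9 passed with a fold change of at least 2, as 1.95% of all genes did. With library totals in place of TMM the share of calls that rose went from 49.6% to 39.3% over all genes. The median absolute log2 change was 0.17 over the 9 genes and 0.22 over all genes. These medians were not matched for level: all of the 9 but FLI1 and CCK were at or above 91.05% of genes in ES8 sgCTL.

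EWSR1 was at 355, 320 and 322 CPM after knockdown, around its 333 to 348 CPM in sgCTL. Its log2 fold change was -0.056 (95% interval -0.19 to 0.079, adjusted p = 0.536). Without replicate A of the knockdown group, EWSR1 passed the test at -0.11 (adjusted p = 0.00315). FLI1 was at 43.4, 41.3 and 43.97 CPM in sgCTL and at 38.6, 43.3 and 41.7 CPM after knockdown, and the groups overlapped. Its log2 fold change was -0.081 (-0.24 to 0.074, adjusted p = 0.426), so a fall of FLI1 reads beyond 0.24 on this scale lies outside the interval.

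NR0B1, an orphan nuclear receptor that represses transcription, was at 68.4, 67.3 and 67.2 CPM in sgCTL and at 62.6, 51.9 and 49.4 CPM after knockdown. All 3 knockdown libraries lay below the controls, and replicate A was the nearest to them. It fell by 0.33 on the log2 scale (SE 0.088, adjusted p = 0.0196). The call was kept without knockdown replicate A, at -0.44 (adjusted p = 1.77e-14). It was lost without any 1 of the other 5 libraries, with an adjusted p of 0.062 to 0.0769. An exact permutation test of 3 against 3 libraries cannot give a two-sided p below 0.1, the value it gave for NR0B1.

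PRKCB, the kinase gene, was at 164, 162 and 170 CPM in sgCTL and at 148, 148 and 153 CPM after knockdown. The groups did not overlap, and the log2 fold change was -0.17 (SE 0.053, adjusted p = 0.0419). This call was kept in only 3 of the other settings and lost in 14, stricter thresholds included. Among those, it was lost with DESeq2 (adjusted p = 0.0567), in the fit over all 18 libraries (0.385), with no filter on low counts (0.133), and without any 1 of the 5 libraries other than knockdown replicate A (0.0719 to 0.179).

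STEAP1 was at 46.5, 45.6 and 46.0 CPM in sgCTL and at 33.1, 44.8 and 44.4 CPM after knockdown. LIPI, the phospholipase, was at 52.0, 49.1 and 52.9 CPM in sgCTL and at 29.7, 50.3 and 48.6 CPM after knockdown. In both genes replicate A alone was low. They had the lowest GC content of the 9 genes, 36.3% in LIPI and 39.1% in STEAP1, and replicate A was the library whose deviations followed GC content most closely. Their log2 fold changes were -0.20 (SE 0.11, adjusted p = 0.198) for STEAP1 and -0.28 (SE 0.16, adjusted p = 0.221) for LIPI, and without replicate A they were -0.071 and -0.081. A correction for GC content and length, chosen after seeing the data, left them at -0.18 (adjusted p = 0.00414) and -0.23 (adjusted p = 0.00209), so both then passed the test, as did NR0B1 at -0.45 (adjusted p = 1.64e-06), while PRKCB did not at -0.087 (adjusted p = 0.0548). With no filter on low counts LIPI passed (adjusted p = 0.0126) and PRKCB did not.

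The remaining targets were close to the controls or above them. NKX2-2 was at 99.9, 93.6 and 99.6 CPM in sgCTL and at 105, 96.3 and 98.5 CPM after knockdown (log2 fold change 0.0076, -0.13 to 0.14, adjusted p = 0.942). CCND1 was at 913, 912 and 926 CPM after knockdown, above all 3 controls by a small margin that missed the threshold (log2 fold change 0.042, -0.072 to 0.16, adjusted p = 0.585). CCK was at 1.56, 1.75 and 1.52 CPM in sgCTL and at 3.07, 2.04 and 1.84 CPM after knockdown, with a log2 fold change of 0.50 (SE 0.21, adjusted p = 0.0993) that was 0.24 without replicate A (adjusted p = 0.35). Mitochondrial transcripts took 1.48% to 1.73% of counts in the knockdown libraries and 1.095% to 1.13% in the controls. Their part in these results was not tested.

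**Figure D3:**
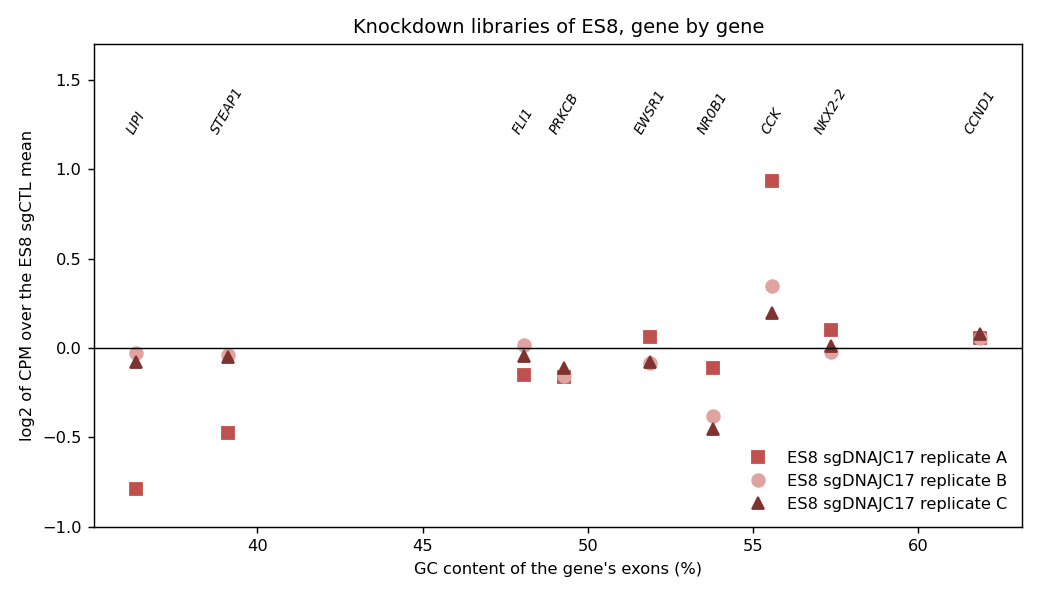
Each ES8 sgDNAJC17 library as the log2 of its CPM over the ES8 sgCTL mean (vertical axis) against the GC content of the gene's exons in percent (horizontal axis), with 1 marker for each of replicates A, B and C. Replicate A is at -0.79 for LIPI and -0.48 for STEAP1, the genes of lowest GC content, and at 0.93 for CCK, whereas replicates B and C lie at -0.38 and -0.45 for NR0B1.

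In ES8 cells with the ΔRRM allele, CCK was the gene of this set that moved. It was at 1.56, 1.75 and 1.52 CPM in sgCTL and at 4.61, 6.37 and 5.21 CPM in ΔRRM, where its counts were 207, 299 and 241. Every ΔRRM library lay above every other ES8 library, the knockdown libraries included. The level was 3.35-fold that of sgCTL (log2 fold change 1.74 ± 0.15 SE, adjusted p = 1.69e-04). Only DNAJC17 ranked before CCK by p among the 17199 genes tested.

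Few genes of any kind passed the test in this comparison: 19 genes, or 0.110%, were higher in ΔRRM than in sgCTL and 17, or 0.0988%, were lower. DESeq2 called 122 genes in either direction, and leaving out a library gave 3 (without sgCTL B) to 683 (without ΔRRM A). With a fold change of at least 2 there were 5, or 0.0291%. Chosen after their values were seen, those were DNAJC17, CCK, ENPP3 (an ectonucleotidase, log2 fold change -1.63), SYCP1 (a synaptonemal complex protein, -1.13) and TRIM47 (a ubiquitin ligase of the TRIM family, -1.12). CCK was past the threshold in each of the 17 other settings, with a log2 fold change of 1.61 to 1.84. MYOG, at 0 in the other ES8 libraries, had 0, 3 and 6 counts in the ΔRRM libraries, and CHRNA1 had 0, 0 and 25, at most 0.298% of its mean level in Rh30 ΔRRM. DES had 25, 20 and 78 counts there, beside 17 to 31 in sgCTL, and MYOD1 had 30, 38 and 81, beside 20 to 30. Replicate C was thus the highest in each of these muscle markers. CCK was at 0 in every Rh30 library, and the source of the muscle marker reads was not tested.

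The other 8 genes did not pass the test against sgCTL. EWSR1 was at 316, 341 and 363 CPM in ΔRRM (log2 fold change -0.0057, 95% interval -0.15 to 0.13) and FLI1 at 41.6, 41.3 and 43.2 CPM (-0.035, -0.18 to 0.11). NR0B1, at 67.0, 72.5 and 67.6 CPM, overlapped its 67.2 to 68.4 CPM in sgCTL (0.023, -0.11 to 0.16). NKX2-2 gave 0.0054 (-0.13 to 0.14), LIPI -0.060 (-0.25 to 0.13) and STEAP1 -0.10 (-0.24 to 0.036).

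CCND1 and PRKCB lay lower in ΔRRM without passing the adjusted threshold. CCND1 was at 799, 719 and 760 CPM, below its 852 to 897 CPM in sgCTL (log2 fold change -0.21 ± 0.060, adjusted p = 0.206). PRKCB was at 150, 124 and 143 CPM, below its 162 to 170 CPM (-0.25 ± 0.072, adjusted p = 0.207). In both genes the groups did not overlap. Without ΔRRM replicate A both passed (adjusted p = 0.0306), and CCND1 also passed without ΔRRM replicate B (adjusted p = 0.0423).

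**Figure D4:**
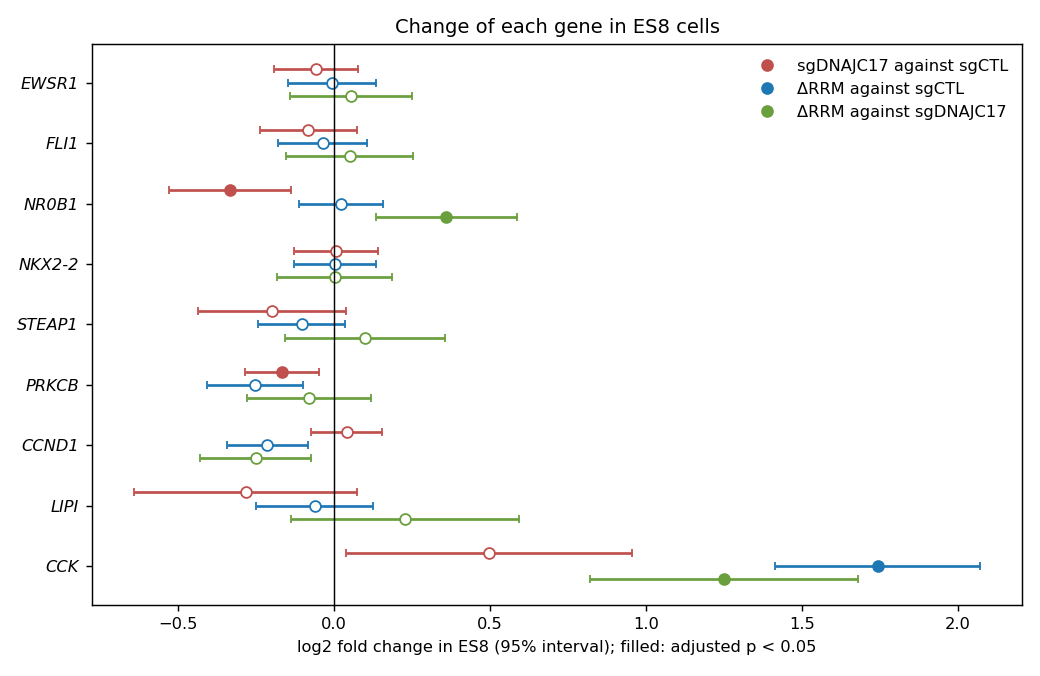
Log2 fold change of each gene in ES8 for sgDNAJC17 against sgCTL, ΔRRM against sgCTL and ΔRRM against sgDNAJC17, with 95% intervals from edgeR and filled points at an adjusted p under 0.05. CCK stands at 1.74 and 1.25 in the ΔRRM comparisons, NR0B1 at -0.33 after knockdown and 0.36 in ΔRRM against knockdown, and the intervals of EWSR1, FLI1 and NKX2-2 include 0 in all 3.

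Set directly against the knockdown cells, ES8 ΔRRM cells were higher in 2 of the 9 genes and lower in 0. Of all 17099 genes, 7.37% were higher and 7.40% lower. This comparison shares its libraries with those above. CCK was 2.38-fold higher in ΔRRM (log2 fold change 1.25 ± 0.20, adjusted p = 0.00234), and NR0B1 was 1.28-fold higher (0.36 ± 0.10, adjusted p = 0.0365). NR0B1 did not overlap between the groups, at 67.0 to 72.5 CPM in ΔRRM and 49.4 to 62.6 CPM after knockdown. Its call was lost without each library in turn except knockdown replicate A (adjusted p = 0.0571 to 0.168). CCND1 was lower at -0.25 ± 0.082 with an adjusted p of 0.0586, which passed with DESeq2 (adjusted p = 0.0326) and without knockdown replicate A (adjusted p = 0.0388). EWSR1 (0.056, -0.14 to 0.25), FLI1 (0.051, -0.15 to 0.25), NKX2-2 (0.0034, -0.18 to 0.19), STEAP1 (0.10, -0.16 to 0.36), PRKCB (-0.080, -0.28 to 0.12) and LIPI (0.23, -0.14 to 0.59) did not pass.

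EWSR1 and CCND1, the 2 genes that Rh30 also expresses, could be compared between lines. CCND1 in Rh30 was at 283, 261 and 256 CPM in sgCTL and at 379, 341 and 310 CPM after knockdown. The groups did not overlap, and CCND1 rose by 0.38 on the log2 scale (SE 0.072, adjusted p = 0.00176), as 15.8% of all genes did in that line. In Rh30 ΔRRM it was at 171, 175 and 163 CPM, below all 6 other Rh30 libraries (log2 fold change -0.61 ± 0.061 against sgCTL, adjusted p = 1.20e-16). EWSR1 in Rh30 was at 453, 440 and 417 CPM after knockdown (-0.063 ± 0.058, adjusted p = 0.441). In ΔRRM it was at 390, 393 and 378 CPM (-0.21 ± 0.062, adjusted p = 0.00136), and both genes were thus lower there, where 35.1% of all genes were. Scaling bears on these values: with library totals in place of TMM the median of both genes shifted by a further -0.24, and the share of calls that were higher went from 49.1% to 33.2% over all genes (for the knockdown in Rh30, from 49.6% to 34.8%). With the GC and length correction CCND1 was at -0.23 (adjusted p = 1.48e-04) and EWSR1 turned to 0.16 (adjusted p = 0.00381).

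The change of CCND1 on knockdown differed between the lines, with an interaction term (ES8 minus Rh30) of -0.36 ± 0.10 (adjusted p = 0.0285), a call made for 9.51% of all genes. That of EWSR1 did not pass (-0.016, -0.22 to 0.19, adjusted p = 0.982). The CCND1 term was lost in the fit over all 18 libraries (adjusted p = 0.0533) and without any 1 of ES8 sgCTL A and C, Rh30 sgCTL A, B and C and Rh30 sgDNAJC17 B (0.0546 to 0.0786). For ΔRRM the interaction was 0.40 ± 0.084 for CCND1 (adjusted p = 3.34e-04) and 0.21 ± 0.084 for EWSR1 (adjusted p = 0.0482), where 41.2% of all genes were called. The EWSR1 term was lost without any 1 of 10 of the 12 libraries, all but ES8 ΔRRM A and B (adjusted p = 0.052 to 0.162), and with the GC and length correction the terms became -0.032 for CCND1 and -0.065 for EWSR1 and neither passed. With library totals the share of interaction calls that were positive went from 46.3% to 62.3% for the guide and from 51.7% to 69.5% for ΔRRM. The summed level of 6 epithelial markers in Rh30 was 1.13 to 1.55 CPM in sgCTL, with CLDN7 at 0, and 12.1 to 17.98 CPM after knockdown and 13.3 to 15.6 CPM in ΔRRM. Most of the sum was KRT8, with means of 0.853, 9.52 and 9.30 CPM in these groups, while EPCAM had 0.135, 0.186 and 0.202 CPM. In ES8 sgCTL the same sum was 33.8 to 36.0 CPM. The part of these markers in the changes of CCND1 and EWSR1 was not tested.

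**Figure D5:**
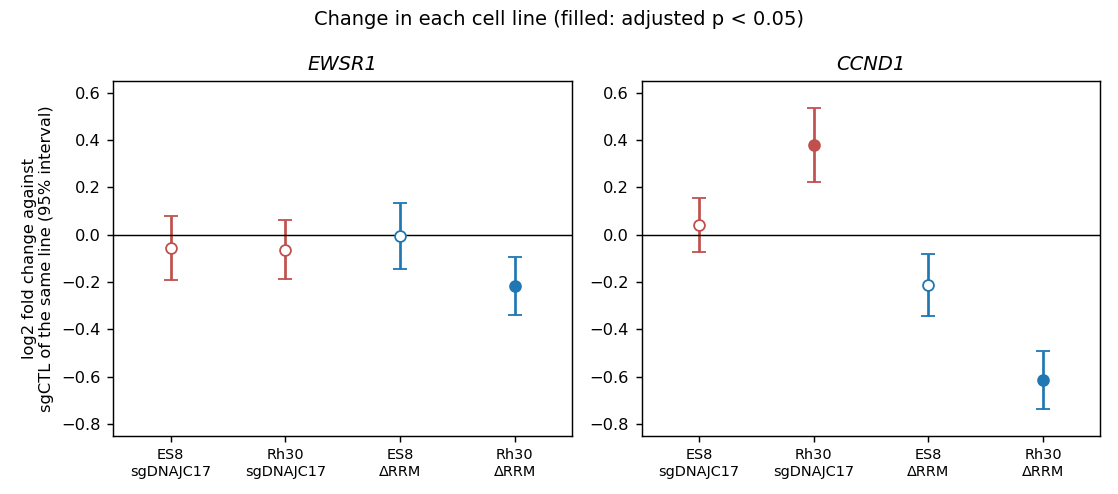
Log2 fold change of EWSR1 and CCND1 against sgCTL of the same line, after knockdown and in ΔRRM, for ES8 and Rh30, with 95% intervals and filled points at an adjusted p under 0.05. CCND1 spreads from 0.38 in Rh30 knockdown to -0.61 in Rh30 ΔRRM, and EWSR1 lies between -0.21 and 0 in all 4.

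Other genes that the fusion is known to activate were also mostly higher in ES8 than in Rh30, 23 of 30 higher and 5 lower (median log2 difference 2.22, against 0.066 over all genes, of which 45.5% were higher and 42.0% lower). Only 19 of the 30 passed the filter on low counts within Rh30, and the others passed through ES8 alone and had to differ, so the count is a description. Examples are PPP1R1A, an inhibitor of protein phosphatase 1, at 41.7 ± 2.04 CPM in ES8 sgCTL, KIT, a receptor tyrosine kinase, at 172 ± 3.11 CPM, and the surface glycoprotein gene XG at 10.1 ± 0.497 CPM, all at or under 0.0636 CPM on average in Rh30 sgCTL. After knockdown in ES8, 9 of the 29 tested fell and 4 rose, with a median of -0.055 against -0.016 over all genes, of which 13.8% fell and 13.5% rose. With the GC and length correction 13 fell and 6 rose, beside 3449 and 3817 of 17143 genes. The largest changes were in RCOR1, a corepressor subunit of the CoREST complex (-0.55 ± 0.06, adjusted p = 5.35e-04), IL1RAP, a subunit of the interleukin-1 receptor (-0.49 ± 0.09, adjusted p = 0.00465), and VRK1, a nuclear kinase (-0.46 ± 0.10, adjusted p = 0.00879). VRK1 was lower in ES8 than in Rh30 to begin with (log2 difference -1.60). In ΔRRM against sgCTL none of the 30 passed in either direction (edgeR). Against knockdown 3 were higher and 2 lower, beside 7.37% and 7.40% of all genes. With the GC and length correction these were 10 and 4, beside 2680 and 2775 of 17099 genes. Without knockdown replicate A, 14 of 30 fell and 6 rose on knockdown (8008 of all genes then passed in either direction, in place of 4678), and RCOR1, IL1RAP and VRK1 were at -0.50, -0.40 and -0.37, all still past the threshold.

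Genes that the fusion is known to repress had the opposite line difference, with 8 of 9 lower in ES8 and 1 higher (median -2.35), beside 42.0% lower and 45.5% higher over all genes. For both lists, an effect of the fusion cannot be told apart from other differences between the lines. DKK1, a secreted Wnt inhibitor, was at 0.240 ± 0.201 CPM in ES8 and 18.3 ± 0.324 CPM in Rh30, PHLDA1 at 0.601 ± 0.196 and 64.9 ± 1.03 CPM, and THBS1, the matrix protein thrombospondin 1, at 18.2 ± 1.19 and 712 ± 51.7 CPM. After knockdown in ES8 only FOXO1 of the 9 passed, at 0.30 ± 0.10 (adjusted p = 0.0481), and in the ΔRRM comparisons none did (edgeR). Without knockdown replicate A, 2 fell and 1 rose on knockdown, beside 4050 and 3958 of 17652 genes. With the GC and length correction 2 fell and 2 rose, beside 3449 and 3817 of 17143. In ΔRRM against knockdown THBS1 then passed, at 0.45 without replicate A (adjusted p = 0.02) and 0.36 with the correction (adjusted p = 0.00879). Of the 9, 1 and 2 were then higher, beside 1774 of 17591 and 2680 of 17099 genes.

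Of 18 FET and ETS family genes, 15 were tested, and 7 were higher and 8 lower in ES8 than in Rh30, where 45.5% and 42.0% of all genes were. TAF15, a FET relative of EWSR1, was higher in ES8, by 0.91 ± 0.048 on the log2 scale, where EWSR1 itself was lower. After knockdown in ES8, 1 gene of the family rose and 2 fell, beside 13.5% and 13.8% of all genes. TAF15 fell by 0.22 (SE 0.058, adjusted p = 0.0194), and the ETS factor ELK1 rose by 0.29 (SE 0.06, adjusted p = 0.00667). Without knockdown replicate A, TAF15 and ELK1 were at -0.26 and 0.26. Then 6 genes of the family rose and 3 fell, beside 3958 and 4050 of 17652 genes. With the GC and length correction 4 rose and 3 fell, beside 3817 and 3449 of 17143. In ΔRRM against knockdown 0 were higher and 1 lower (median -0.24), beside 7.37% and 7.40% of all genes. Without replicate A these were 1 and 5, beside 1774 and 1656 of 17591 genes. With the correction they were 1 and 7, beside 2680 and 2775 of 17099. The next list held 15 genes, cofactors of the fusion and splicing factors known to act on EWSR1. Of these, 10 were higher and 4 lower in ES8 than in Rh30, beside 45.5% and 42.0% of all genes. After knockdown in ES8, 1 was higher and 2 lower, beside 13.5% and 13.8% of all genes. Without replicate A it was 4 and 6, beside 3958 and 4050 of 17652 genes. With the GC and length correction it was 6 and 4, beside 3817 and 3449 of 17143 genes. The BAF subunit SMARCC1 fell by 0.22 (SE 0.06, adjusted p = 0.0217) and HNRNPH1, a splicing factor that acts on EWSR1 transcripts, by 0.18 (SE 0.06, adjusted p = 0.0355), a call lost with the GC and length correction (-0.074, adjusted p = 0.105). No gene of these 4 lists passed the test with a fold change of at least 2 in any comparison within ES8.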

How the data were processed

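RNA-seq of 18 libraries was analysed from the deposited tables of read counts per gene, 1 table per library, each with the gene's coordinates and exonic length. Per the labels, poly-A RNA was sequenced with Illumina kits. The submitters' processing notes name Trimmomatic 0.36, STAR 2.5.2b, featureCounts (Subread 1.5.2) and GRCh38, while the study's methods name hg19; in the files, 93.971% of 18957 protein-coding genes start within 10 kb of their RefSeq GRCh38.p14 start, so coordinates are given on GRCh38. Symbols were matched for 55082 of 57500 identifiers. The members and all lists were chosen with earlier results of these data known. Samples were grouped by their titles.

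Counts were tested with edgeR 4.0.16 (quasi-likelihood, robust, TMM scaling, filterByExpr) in R 4.3.3, with only the groups compared in each fit and Benjamini-Hochberg adjustment over all genes tested. A gene was called at an adjusted p under 0.05. The scripts were tested on simulated data. Tests within Rh30 and of interactions are given for EWSR1 and CCND1, since each of the other 7 genes had at most 6 counts in any Rh30 library. CPM used TMM-scaled totals, and TPM and RPKM the exonic length. Ratios against near-silent groups used an exact 95% counting interval, with 3 counts over the group as the floor. Alternatives were DESeq2 1.42.0, its size factors in edgeR, library totals, no filter on low counts or a minimum of 10 counts per library, a joint fit of all 18 libraries, a replicate block, stricter calls (an adjusted p under 0.01, or a fold change of at least 2), and leaving out each library. A correction for GC content and length, and the comparisons of Rh30 ΔRRM with Rh30 sgCTL and of ΔRRM between lines, and the lists without ES8 sgDNAJC17 replicate A, were added after seeing the data. Genes named were the 9 members and DNAJC17, from each of 4 lists those called with a fold change of at least 2 within ES8 and the 3 called genes of largest change between lines and on knockdown in ES8, and the 5 genes nearest to EWSR1 and FLI1. Some genes that this rule would name are not reported here.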

Additional observations from a re-analysis of the deposited data

Results flagged for a closer look

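The effect of the DNAJC17 guide on CCND1 differed between the lines by a test of the difference itself, with an interaction term of -0.36 on the log2 scale (ES8 minus Rh30, SE 0.10, adjusted p = 0.0285), from 0.042 in ES8 and 0.38 in Rh30. This call was lost in the joint fit of 18 libraries (adjusted p = 0.0533) and without any 1 of 6 of the 12 libraries (0.0546 to 0.0786). The effect of the ΔRRM allele differed between the lines for CCND1, by 0.40 (SE 0.084, adjusted p = 3.34e-04, from -0.21 in ES8 and -0.61 in Rh30), and for EWSR1, by 0.21 (SE 0.084, adjusted p = 0.0482, from -0.0057 and -0.21). With the GC and length correction these terms were -0.032 and -0.065 and neither passed, and the EWSR1 call was also lost without any 1 of 10 of the 12 libraries (adjusted p = 0.052 to 0.162).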

How the results depend on the processing

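CCK was higher in ES8 ΔRRM than in ES8 sgCTL and than after knockdown in every setting run, with log2 fold changes of 1.61 to 1.84 and 1.103 to 1.502. Over all single-gene results, 640 kept direction and side of the threshold, 58 lost and 16 gained a call, and 51 turned sign, most of them at values near 0.

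For ES8 against Rh30, 1 gene was higher with at least 10 counts in every library, where only 2 genes were tested, and 0 were lower with a fold change of at least 2. For knockdown in ES8, the count of genes that fell was 1 with DESeq2, with its size factors, in the joint fit of 18 libraries and with the replicate block, 0 at an adjusted p under 0.01 or a fold change of at least 2, and 0 to 3 without each library in turn; the count that rose was 1 (CCK, adjusted p = 0.0498) with no filter. For ΔRRM against sgCTL in ES8, the count that was lower was 1 with no filter and 0 to 2 without each library. For ΔRRM against knockdown, 1 gene was lower with DESeq2, in the joint fit and with the GC and length correction, also with the block, and 0 to 1 without each library, while the count that was higher was 1 with the replicate block, at an adjusted p under 0.01, at a fold change of at least 2, and 1 to 2 without each library. In Rh30, the count that rose on knockdown was 0 at a fold change of at least 2 and 2 with the correction and the block (EWSR1 at 0.087, adjusted p = 0.00502), and for ΔRRM it was 0 lower at that fold and 1 higher and 1 lower with the correction, with or without the block. The count of negative interactions for the guide was 0 in the joint fit, at an adjusted p under 0.01 and at a fold change of at least 2, and 0 to 1 without each library. The count of positive interactions for ΔRRM was 1 with no filter, with at least 10 counts, with the replicate block and at an adjusted p under 0.01, 0 at a fold change of at least 2 and with the correction, with or without the block, and 1 to 2 without each library.

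On knockdown in ES8, NKX2-2 turned to -0.040 and CCND1 to -0.0048 with library totals, and with the GC and length correction EWSR1 turned to 0.0068 and NKX2-2 to -0.095 (0.0061 and -0.094 with the block). For ΔRRM against sgCTL, NKX2-2 was -0.016 with library totals and EWSR1 2.84e-04 in the joint fit, and the correction gave EWSR1 0.071, FLI1 0.019, NR0B1 -0.058 and NKX2-2 -0.077 (0.066, 0.018, -0.058 and -0.078 with the block). For ΔRRM against knockdown, NKX2-2 was -0.0020 with DESeq2, -0.0081 with its size factors, -4.51e-04 with at least 10 counts and -0.019 in the joint fit. With the correction EWSR1 in Rh30 was 0.087 on knockdown and 0.16 in ΔRRM, alike with the block. The EWSR1 interaction for the guide was 7.76e-04 with DESeq2, 0.0020 with its size factors, 0.020 with library totals, 0.013 with no filter, 8.64e-04 with at least 10 counts and 0.045 in the joint fit. The ΔRRM interaction with the correction was -0.065 for EWSR1 and -0.032 for CCND1 (-0.068 and -0.035 with the block). Without each library in turn, the changes that turned sign ranged from -0.031 to 0.031 for NKX2-2 on knockdown, from -0.061 to 0.045 for EWSR1, -0.012 to 0.045 for NR0B1, -0.023 to 0.031 for NKX2-2 and -0.12 to 0.043 for LIPI in ΔRRM against sgCTL, from -0.037 to 0.040 for NKX2-2 and -0.028 to 0.16 for STEAP1 in ΔRRM against knockdown, and from -0.088 to 0.035 for the EWSR1 interaction of the guide. The causes were not tested.

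Same-lettered replicates did not pass a correlation of 0.1 in all 3 pairs of any comparison (knockdown against control, r across genes = -0.052, -0.149 and 0.131 in ES8 and 0.214, 0.053 and 0.071 in Rh30), so the letters are treated as numbers only. The replicate block raised the calls of the knockdown in Rh30 from 4916 to 7267. With the replicate block, ΔRRM against sgCTL gave 209 calls over all genes in place of 36, DESeq2 122, no filter 406, the correction 142 (118 with the block), and leaving out each library 3 to 683. Other counts over all genes that moved by over 1.5 times were 4678 for knockdown in ES8 (7266 with the correction, 7058 with the block, 2417 without ES8 sgCTL C to 8008 without knockdown A), 2526 for ΔRRM against knockdown (1360 with the block, 4537 in the joint fit, 5455 and 4783 with the correction, and from 1076 without each library) and 1798 for the guide's interaction (3219 and 3331 with the correction, from 936 without each library). For the knockdown in Rh30 they were 4916 and, without each library, 2967 to 6501. With a fold change of at least 2 the counts were 9129 for ES8 against Rh30, in place of 15687, and 334, 5, 341, 236, 1535, 241 and 1245 for knockdown, ΔRRM against sgCTL and ΔRRM against knockdown in ES8, knockdown and ΔRRM in Rh30, and the interactions of the guide and of ΔRRM. At an adjusted p under 0.01 they were 2234, 20, 829, 2732 and 567 for the first 4 of these and the guide's interaction. Low depth limits CCK, at 77 to 299 counts in ES8, and the 7 genes that had at most 6 counts in any Rh30 library.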
